A study of Homo sapiens with 2 samples.

Results

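The interferon response genes described here are 42 named genes that interferon signalling is known to induce or that carry it, and they were taken by name from a table of 32742 genes. They were measured in WaGa, an established human cell line from a Merkel cell carcinoma, a neuroendocrine skin cancer. For 1 single-cell RNA library the cells had received domatinostat, a drug that inhibits class I histone deacetylases, dissolved in DMSO, and for 1 library they had no treatment, with no DMSO named. Both were kept in RPMI medium, in suspension, and the labels gave no dose and no time. Drug and solvent cannot be told apart in this design. Cells carry their treatment only as a word at the end of their names, so each library is named here by that word, as labelled treated or labelled untreated. Of the 42 genes, 16 had at least 50 unique molecular identifiers (UMIs, each standing for 1 captured transcript) over both libraries and are given ratios. Of the other 26, 16 had between 1 and 49 UMIs and 10 had none.

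Interferons are secreted proteins that infected or damaged cells use to warn their neighbours. Type I interferons bind the IFNAR1 and IFNAR2 receptor, whose kinases JAK1 and TYK2 phosphorylate STAT2 among others. STAT2 and IRF9 are parts of the complex ISGF3, which binds the interferon-stimulated response element in the promoters of antiviral genes. Interferon gamma acts through another promoter element, the gamma-activated site. Many tumour lines keep a low level of some of these genes without added interferon. In Merkel cell carcinoma they are of interest because the same pathway governs how visible a tumour cell is to T cells.

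There were 6679 cells labelled treated (60160108 UMIs, median 8578 per cell) and 4137 labelled untreated (45562976 UMIs, median 11125 per cell). Levels are UMIs per 1000000 UMIs of the library (CPM). They count transcripts by their 3′ ends, so transcript length does not enter. Each condition is a single library, so differences have no replicate check, none was tested, and every interval given is a 95% exact interval for counting error only. The libraries shared 48 cell barcodes, and without those cells the count of lower genes given below was also 8. The line's identity held in both libraries: 11 of 12 Merkel cell markers had at least 50 UMIs, with CHGA at 1221 and 886.3 CPM and KRT20 at 248.0 and 295.5 CPM in the libraries labelled treated and untreated, while NEUROD1 had only 7 and 19 UMIs. CDKN1A, a gene that deacetylase inhibitors are known to induce, went against the label, with 39.41 CPM in the library labelled treated and 97.91 CPM in the library labelled untreated. The linker histone genes H1F0 and HIST1H1C, also looked at as a check, had ratios of 0.782 and 1.69. CDKN1A and H1F0 were thus lower in the library labelled treated and HIST1H1C was higher, so the check did not settle the labels. Every direction below depends on the treatment words being right.

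The promoters were searched for fixed forms of the sequences that interferon signalling uses. Variants of these forms were not searched, so a window without a match may still hold such an element. RefSeq promoter windows on GRCh38.p14, from 250 bases before the start of the gene to 50 bases from it, were found for 33 of the 42 genes, 1 of them, DDX58, through its present symbol RIGI. The submitters' processing notes name hg19 for the deposited values, and these coordinates are GRCh38.p14 only. The core of the interferon-stimulated response element, read as GAAA, NN (any bases) and GAAA, was searched on both strands (on the other it reads TTTC, NN and TTTC), with overlapping matches counted, and may overlap other motifs. It was in 27 of the 42 windows (64.3%), which belong to 23 of the 33 genes, and in 3.57% of all 35116 windows in the table. The list was assembled for interferon response, so this share describes the list. The full window of ISG15 is shown first because it carries 2 overlapping matches, in capitals, that start 113 bases before the gene. The next lines show other members whose level was lower in the library labelled treated.
ISG15 (chr1:1013247-1013546, + strand): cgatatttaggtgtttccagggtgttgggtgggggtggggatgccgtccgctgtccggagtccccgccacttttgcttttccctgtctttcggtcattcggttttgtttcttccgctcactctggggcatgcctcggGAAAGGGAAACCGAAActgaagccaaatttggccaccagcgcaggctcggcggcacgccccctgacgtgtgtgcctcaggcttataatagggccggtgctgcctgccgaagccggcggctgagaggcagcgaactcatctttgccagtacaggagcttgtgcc
ISG20 (chr15:88638927-88638976, + strand): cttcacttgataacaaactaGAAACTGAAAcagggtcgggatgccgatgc
IFI27 (chr14:94110608-94110670, + strand): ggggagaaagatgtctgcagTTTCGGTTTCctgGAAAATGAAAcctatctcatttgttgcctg
IFIT3 (chr10:89327821-89327904, + strand): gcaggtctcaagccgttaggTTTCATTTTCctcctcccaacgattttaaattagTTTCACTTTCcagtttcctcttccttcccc

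The same core stood in promoters of genes that were expressed but less than 1.5-fold apart, and of genes with no UMI at all. The 2 groups follow in that order, again with matches in capitals.
IFI6 (chr1:27672256-27672368, - strand): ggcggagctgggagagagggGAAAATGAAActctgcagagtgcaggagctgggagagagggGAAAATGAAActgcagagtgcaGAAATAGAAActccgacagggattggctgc
IFIT5 (chr10:89414503-89414593, + strand): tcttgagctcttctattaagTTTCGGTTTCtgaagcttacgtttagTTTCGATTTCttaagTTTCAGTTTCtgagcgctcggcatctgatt
LGALS3BP (chr17:78979952-78980001, - strand): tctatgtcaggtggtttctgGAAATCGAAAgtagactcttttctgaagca
MX1 (chr21:41420549-41420598, + strand): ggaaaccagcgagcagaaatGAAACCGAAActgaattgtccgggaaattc
CXCL10 (chr4:76023689-76023738, - strand): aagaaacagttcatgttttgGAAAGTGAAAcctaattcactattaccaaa
Of the 14 genes with at least 50 UMIs and a window, 8 held the core, and of 19 genes under 50 UMIs, 15 did. Of the 8, 4 passed 1.5-fold downwards (labelled treated over labelled untreated), against 3 of the 6 without it. Of all genes with at least 50 UMIs, 14.9% did, and of those with 50 to under 200 UMIs, 41.4%. The 3 most abundant members, IFI6, LGALS3BP and OAS3, are all among the 8 with the core. The sets thus differ in abundance and are too small to compare further.

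The gamma-activated site, TTCNNNGAA, reads the same on the other strand and was in 9 of the 42 windows (21.4%), against 7.66% of all windows. IRF1 is shown because interferon gamma is known to act on it through such a site, which began 124 bases before its start.
IRF1 (chr5:132490869-132490917, - strand): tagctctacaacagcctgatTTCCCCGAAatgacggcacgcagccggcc
IRF9, whose product joins ISGF3, also held 1 match, as did OAS1, IFI35 and IFI27.

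Outside IFI6, LGALS3BP and OAS3, the members were weakly expressed in both libraries, each below 10 CPM, and 8 of the 13 of these with a ratio passed 1.5-fold downwards (labelled treated over labelled untreated). Over all, a fold of 1.5 was passed downwards by 8 of the 16 measured genes and upwards by 0, against 14.9% and 3.77% of the 13958 genes measured in all. A fold of 2 was passed downwards by 5 (ISG15, IRF7, OAS1, IFI27 and ISG20) and upwards by 0, against 7.93% and 0.695% of all genes. The minimum was set on UMIs over both libraries, for members and all genes alike. IRF7, OAS1 and ISG20 reached it through the library labelled untreated alone, with 24, 36 and 27 UMIs in the library labelled treated. DDX58 reached it through the library labelled treated alone, with 48 UMIs in the library labelled untreated. With a minimum of 100 UMIs, 5 of 13 members passed 1.5-fold downwards and 0 upwards, against 12.2% and 3.17% of all genes. The median log2 ratio was -0.62 over the 16 genes and -0.02 over all 13958. All 42 genes together had 6791 UMIs, or 112.9 CPM, in the library labelled treated and 6922 UMIs, or 151.9 CPM, in the library labelled untreated, a ratio of 0.743 (0.719 to 0.768). Most of this sum came from IFI6, LGALS3BP and OAS3, and without these 3 the ratio was 0.590 (0.552 to 0.630).

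**Figure D1:**
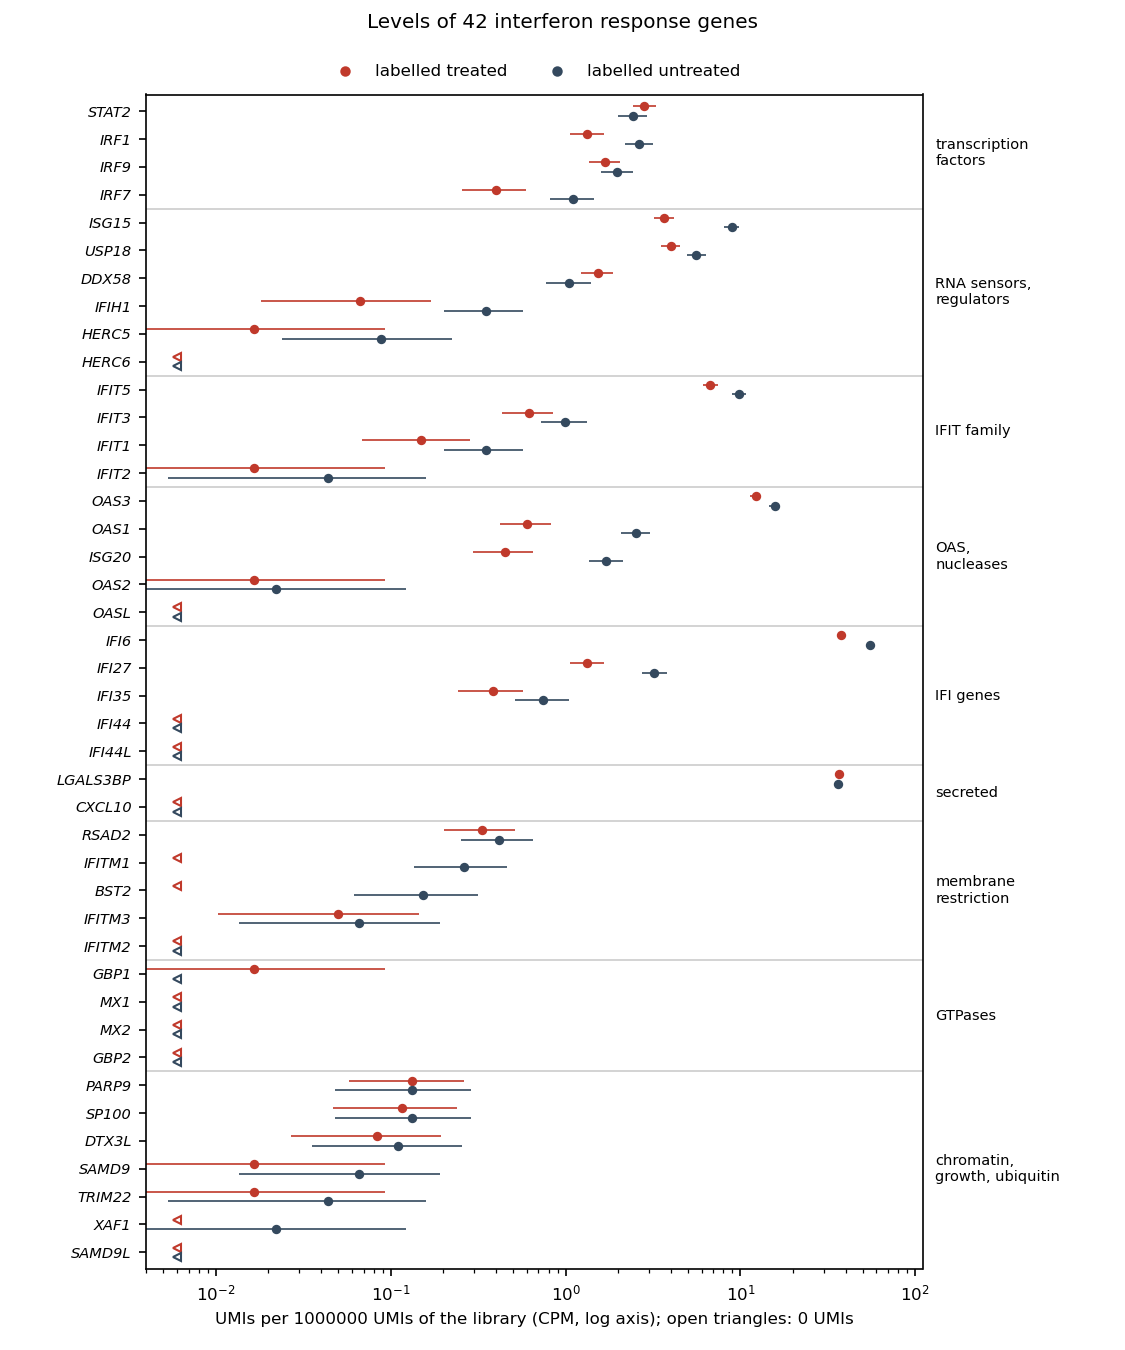
Level of each of the 42 genes in CPM on a log axis, by role, with 95% exact Poisson intervals (counting error only). Points for the library labelled treated stand above those for the library labelled untreated, open triangles mark 0 UMIs, and 3 genes, IFI6, LGALS3BP and OAS3, lie above 10 CPM in both libraries.

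Low counts bear on this comparison, because weakly expressed genes in general were lower in the library labelled treated. Among all genes, 41.4% of those with 50 to under 200 UMIs passed 1.5-fold downwards and 8.74% upwards. The shares were 20% and 4.52% for 200 to under 1000 UMIs, and 4.46% and 1.9% for 1000 UMIs or more. Of the members, 5 of 7 in the first class were lower, 3 of 6 in the second and 0 of 3 in the last, and none passed 1.5-fold upwards. The median log2 ratio over all genes of the first class was -0.39. For the members the classes thus give a smaller excess over the background than the count over all genes does.

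**Figure D2:**
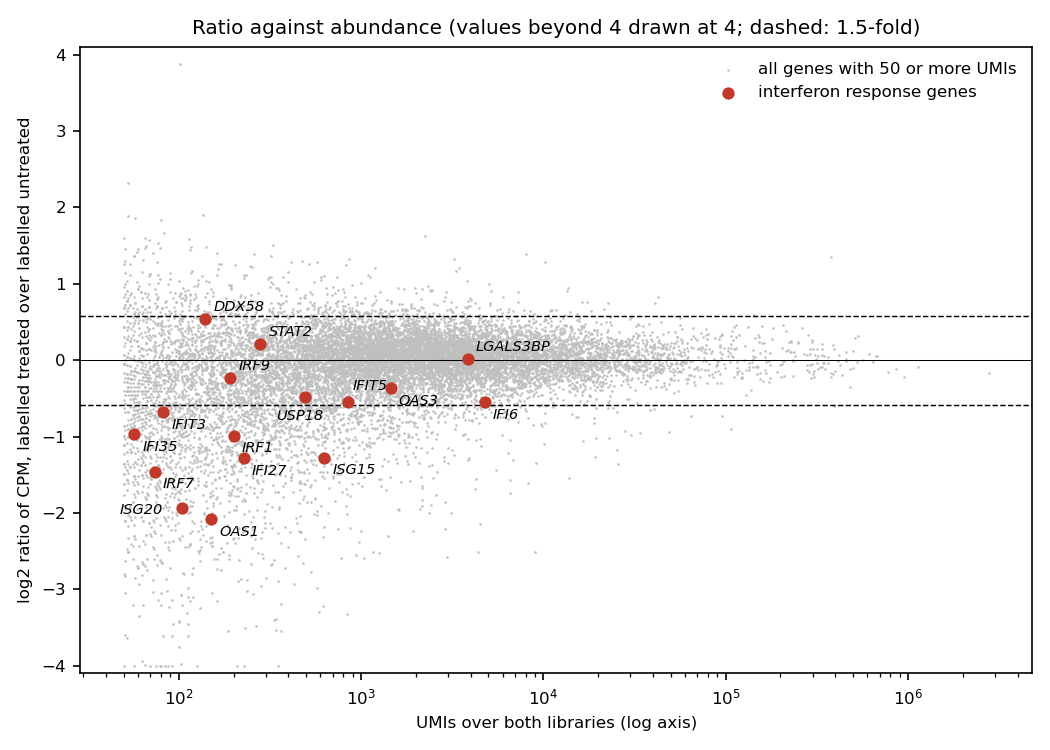
Log2 ratio of CPM (labelled treated over labelled untreated) against UMIs over both libraries on a log axis, for all genes with at least 50 UMIs in grey and the 16 interferon response genes in red. The grey cloud bends down towards low UMIs, and the members with the lowest ratios, OAS1 and ISG20, lie in that range; 13 genes beyond 4 in size are drawn at the edge and 2 genes with 0 UMIs in 1 library are not drawn.

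The transcription factors split into a lower pair and a pair that differed little. IRF1, an activator of interferon and antigen presentation genes, had 80 UMIs in the library labelled treated and 120 in the library labelled untreated, or 1.33 and 2.63 CPM, a ratio of 0.505 (0.376 to 0.676). IRF7, which drives interferon alpha genes, had 24 and 50 UMIs, or 0.399 and 1.10 CPM, with its ratio at 0.364 (0.214 to 0.603). The ISGF3 subunit gene STAT2 had 170 UMIs in the library labelled treated and 111 in the library labelled untreated, or 2.83 and 2.44 CPM, a ratio of 1.16 with an interval that includes 1 (0.908 to 1.49). IRF9 had 101 and 90 UMIs, or 1.68 and 1.98 CPM, and a ratio of 0.850 (0.633 to 1.14). None of the 4 reached 3 CPM in either library.

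The sensors of viral RNA were rare. DDX58, which encodes RIG-I, a receptor for RNA with a triphosphate end, was the one member near a 1.5-fold higher level. It had 92 UMIs in the library labelled treated and 48 in the library labelled untreated, or 1.53 and 1.05 CPM, a ratio of 1.45 (1.01 to 2.10). IFIH1, which encodes the long double-stranded RNA sensor MDA5, had 4 and 16 UMIs. DHX58, another gene of this receptor family and not a member, had 2 and 47 UMIs, just under the minimum for a ratio.

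ISG15, a ubiquitin-like protein that is attached to other proteins and is also secreted, had 221 UMIs in 174 of 6679 cells labelled treated and 406 UMIs in 355 of 4137 cells labelled untreated. These are 3.67 and 8.91 CPM, a ratio of 0.412 (0.348 to 0.487). USP18, the protease that removes ISG15 and restrains the type I receptor, had 240 and 255 UMIs, or 3.99 and 5.60 CPM, a ratio of 0.713 (0.595 to 0.854). UBE2L6, the conjugating enzyme of ISG15, had 667 UMIs in the library labelled treated and 1455 in the library labelled untreated, a ratio of 0.347 (0.316 to 0.381). UBA7 and the member HERC5, which encode the activating enzyme and a ligase of the same system, had 5 and 6 UMIs and 1 and 4 UMIs, and HERC6 had none. TRIM25, which has also been described as an ISG15 ligase, had 317 and 201 UMIs, a ratio of 1.19 with an interval that includes 1 (0.998 to 1.43). The genes of this system were grouped after their values were seen. ISG15, USP18 and UBE2L6 had ratios below 1 with intervals that leave out 1, while TRIM25 lay above 1 within counting error. USP41, a near-identical copy of USP18, had 10 and 9 UMIs, and reads that match both could be split or lost, so USP18 is uncertain.

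In the IFIT family, whose proteins bind the ends of foreign RNA, 1 gene held most transcripts. IFIT5 had 404 UMIs in the library labelled treated and 448 in the library labelled untreated, or 6.72 and 9.83 CPM, a ratio of 0.683 (0.596 to 0.783), just short of 1.5-fold lower. IFIT3 had 37 and 45 UMIs, with its ratio at 0.623 (0.392 to 0.984). IFIT1 had 9 and 16 UMIs and IFIT2 1 and 2, although both are among the genes most strongly induced when interferon is added to cells.

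The oligoadenylate synthetases, which sense double-stranded RNA and activate the nuclease RNase L, showed the same unevenness. OAS3 had 735 UMIs in the library labelled treated and 718 in the library labelled untreated, or 12.2 and 15.8 CPM, a ratio of 0.775 (0.699 to 0.861). OAS1 had 36 and 115 UMIs, or 0.598 and 2.52 CPM, and the lowest ratio of the 16 genes, 0.237 (0.158 to 0.347). OAS2 had 1 UMI in each library and OASL none. ISG20, an exonuclease that degrades RNA, had 27 UMIs in the library labelled treated and 78 in the library labelled untreated, a ratio of 0.262 (0.163 to 0.411).

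Of the IFI genes, IFI6 was the most abundant member of all. IFI6, a small hydrophobic protein of intracellular membranes, had 2257 UMIs in the library labelled treated and 2504 in the library labelled untreated, or 37.5 and 55.0 CPM, a ratio of 0.683 (0.645 to 0.723). IFI27, a related small protein, had 80 and 147 UMIs, or 1.33 and 3.23 CPM, with its ratio at 0.412 (0.310 to 0.545). IFI35, which encodes a binding partner of NMI, had 23 and 34 UMIs, with its ratio at 0.512 (0.288 to 0.896), and of the 16 it stood closest to the minimum of 50. The nearest member under that minimum was RSAD2, with 20 and 19 UMIs. LGALS3BP, a secreted glycoprotein that binds galectins, did not differ beyond counting error, with 2202 and 1650 UMIs, 36.6 CPM in the library labelled treated and 36.2 CPM in the library labelled untreated, a ratio of 1.01 (0.948 to 1.08).

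Many classical effectors were silent. No UMI of the GTPase genes MX1, MX2 and GBP2, of IFITM2, IFI44, IFI44L, OASL, HERC6 and SAMD9L, or of the T cell chemokine gene CXCL10 was found in either library. Taken as 3 cells, a count of 0 leaves room for up to 0.0449% of cells labelled treated and 0.0725% of cells labelled untreated to hold a UMI. GBP1 had 1 and 0 UMIs. The viral fusion inhibitor IFITM1 and the virus tether BST2 had 0 UMIs each in the library labelled treated, against 12 and 7 in the library labelled untreated, and IFITM3 had 3 in each. The 3 IFITM genes are near-identical over part of their length, so reads could be split among them. RSAD2, which encodes the antiviral enzyme viperin, was the most abundant of the 26 genes under 50 UMIs. PARP9 had 8 and 6 UMIs, its partner DTX3L 5 and 5, the nuclear body gene SP100 7 and 6, TRIM22 1 and 2, SAMD9 1 and 3, and XAF1 0 and 1. Together the 26 genes had 62 UMIs in the library labelled treated and 103 in the library labelled untreated, or 1.03 and 2.26 CPM, a ratio of 0.456 (0.327 to 0.631).

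With every cell thinned to 4351 UMIs, which kept 6012 cells labelled treated and 3892 labelled untreated, ISG15 had a UMI in 1.35% (81 cells) and 4.01% (156 cells). Unthinned, the shares were 2.61% and 8.58%. IFI6 had a UMI in 13.97% of thinned cells labelled treated and 19.4% of thinned cells labelled untreated, and in 25.9% and 38.5% unthinned. LGALS3BP, whose levels hardly differed, had 13.9% and 14.6% thinned, and 26.7% and 31.5% unthinned. DDX58 had 0.732% and 0.385% thinned, and 1.36% and 1.16% unthinned. In a culture of 1 line no cell type lacks these genes, so the share that free RNA in droplets gives could not be gauged.

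Few cells of either library had several of the members at once. In thinned cells, 63.0% (61.8% to 64.2%) of cells labelled treated and 53.0% (51.4% to 54.6%) of cells labelled untreated had no UMI of any of the 42 genes. Without IFI6, LGALS3BP and OAS3, 3 genes with a UMI in the same cell were found in 5 of 6012 cells labelled treated and 4 of 3892 cells labelled untreated, and 4 genes in none. ISG15 was the least evenly spread member, with up to 7 UMIs in 1 cell of each library and a variance over mean of 1.23 and 1.13 in thinned cells. The 10 cells labelled treated with 3 or more ISG15 UMIs held 1 UMI of the other 38 weaker members together, and the 8 such cells labelled untreated held 5. That is 8.31 CPM (0.211 to 46.3), against 22.7 CPM in ISG15-free cells, in the library labelled treated, and 41.7 CPM (13.5 to 97.3), against 36.2 CPM, in the library labelled untreated. Both intervals include the level of the ISG15-free cells. IFI6 in the same cells had 66.5 CPM (28.7 to 131.1), against 37.3 CPM in ISG15-free cells, in the library labelled treated. In the library labelled untreated it had 125.0 CPM (70.0 to 206.2), against 55.3 CPM, an interval above the level of the ISG15-free cells, from 15 UMIs. These 8 cells were deep, with a median of 15662 UMIs, against 11125 in the library. In the 355 cells labelled untreated with 1 or more ISG15 UMIs, IFI6 had 51.75 CPM (45.15 to 59.04). In the 174 such cells labelled treated it had 43.45 CPM (34.4 to 54.16). At this lower cut both intervals included the level of the ISG15-free cells. The 2 richest cells of each library held at most 11.1% of any measured member's UMIs in the library labelled treated (ISG20) and at most 8.0% in the library labelled untreated (IRF7), and without these cells 8 members were again lower.

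**Figure D3:**
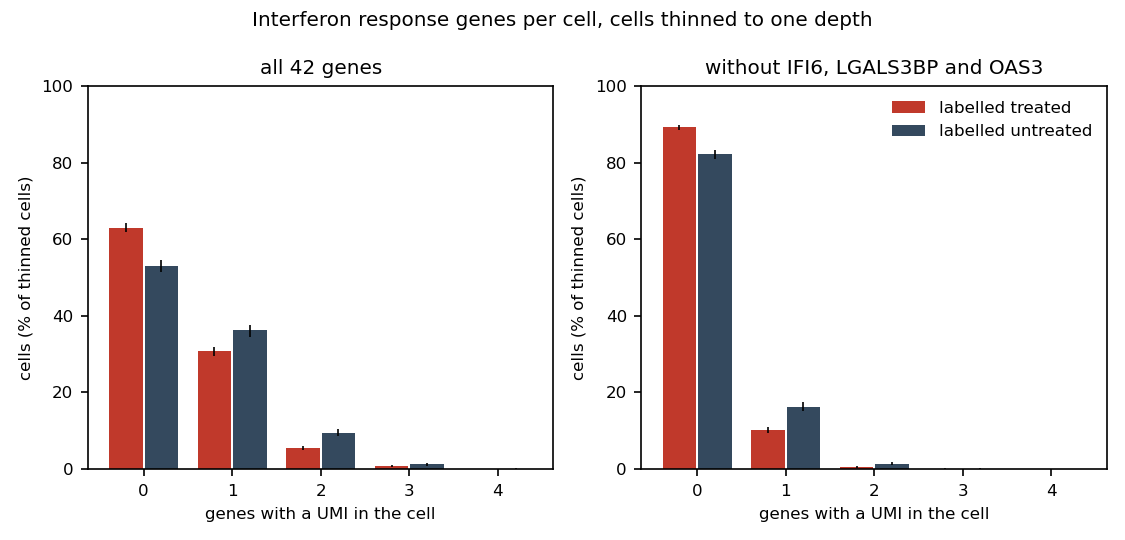
Share of cells (percent) by the number of interferon response genes with a UMI, in cells thinned to 4351 UMIs, for all 42 genes and without the 3 most abundant; red bars are the library labelled treated, dark bars the library labelled untreated, and lines are 95% exact binomial intervals (counting error only). In both panels more cells labelled treated than labelled untreated have no UMI, and cells with 3 or more genes are rare in both.

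Levels also differed with the called phase of the cell cycle, whose shares differed between the libraries. Cells called G2/M made up 45.9% of cells labelled treated and 33.5% of cells labelled untreated, S phase 48.9% and 57.4%, and G1 5.20% and 9.09%. IFI6 in cells called G2/M had 42.2 CPM (39.9 to 44.6) in the library labelled treated and 73.1 CPM (69.1 to 77.2) in the library labelled untreated. In cells called S phase it had 31.8 CPM in the library labelled treated and 43.5 CPM in the library labelled untreated. Its G1 levels were 45.0 and 44.0 CPM. IFI6 was thus higher in G2/M than in S phase within each library, and close between the libraries in the few cells called G1. Depth differed too. In the library labelled treated, cells called G2/M had a median of 10010.5 UMIs and those called S phase 8066.5. In the library labelled untreated, these medians were 13292 and 10746 UMIs. The part of depth in the levels by phase was not tested.

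OAS3 and USP18 were lower in the library labelled treated in S phase, but had ratios of 1.11 and 1.18 in G2/M. OAS3 in S phase had 11.5 CPM (10.3 to 12.9) in the library labelled treated and 19.7 CPM (18.0 to 21.6) in the library labelled untreated, and 13.4 CPM (12.1 to 14.7) and 12.1 CPM (10.5 to 13.8) in G2/M. USP18 had 4.48 CPM (3.72 to 5.34) and 7.60 CPM (6.56 to 8.76) in S phase, and 3.64 CPM (2.99 to 4.38) and 3.07 CPM (2.31 to 4.005) in G2/M. For OAS3 and USP18 alike, the intervals of the libraries overlapped in G2/M. ISG15 was lower in the library labelled treated within each phase, with 3.09 and 9.47 CPM in S, 4.29 and 7.45 CPM in G2/M, and 2.32 and 13.0 CPM in G1, the last from 5 and 37 UMIs. The part of the phase shares in the ratios over all cells was not tested beyond these values; the summed ratio of all 42 genes was 0.752 in S phase and 0.729 in G2/M, against 0.743 over all cells.

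Within each library the summed level was higher in deeper cells. With the cells of each library split by depth into 3 equal classes, all members together in the shallowest class had 102.5 CPM (96.7 to 108.5) in the library labelled treated and 140.3 CPM (132.5 to 148.4) in the library labelled untreated. In the deepest class they had 120.0 and 160.7 CPM. Not every member rose with depth. In the library labelled untreated, IFI6 had 41.62 CPM in the shallowest class and 64.71 CPM in the deepest. OAS3 had 8.926 and 17.46 CPM there, while IFI27 fell from 6.376 to 2.303 CPM and IRF9 from 3.362 to 1.244 CPM. LGALS3BP had 39.42 and 35.28 CPM in that library, but 30.34 and 39.13 CPM in the library labelled treated. In cells of 7000 to 12000 UMIs, whose medians were 9305 and 9886 UMIs, the summed ratio was 0.815. In these cells 6 of the 16 members passed 1.5-fold downwards and 1, DDX58, upwards, against 15.8% and 5.5% of all genes.

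**Figure D4:**
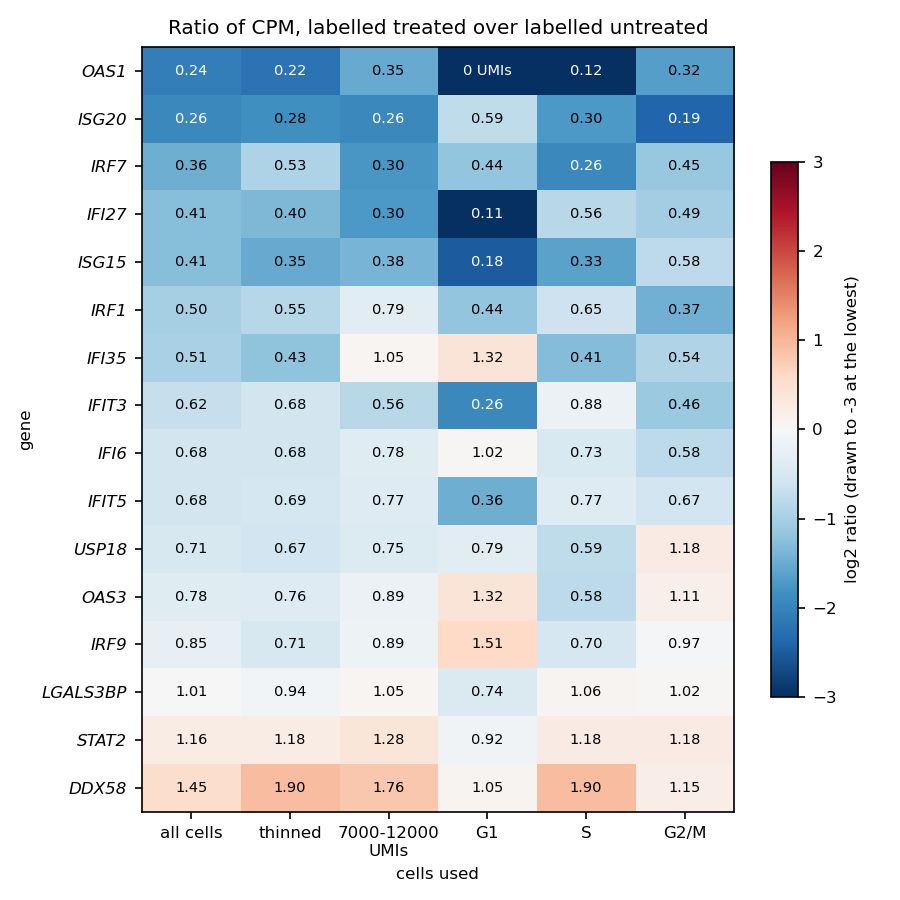
Ratio of CPM (labelled treated over labelled untreated) of the 16 genes with at least 50 UMIs, in all cells and in subsets, with colour on a log2 scale. ISG15, ISG20, IFI27, IRF7, OAS1, IRF1, IFIT3 and IFIT5 are below 1 in every subset shown, and DDX58 is above 1 in every one. G1 values rest on 225 and 422 UMIs of all members together.

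Upstream of the members, the receptors were expressed and no UMI of an interferon gene was found. None of 21 interferon genes, alpha, beta, gamma and lambda types among them, had a UMI in either library. For each gene, a count of 0 leaves room for up to 0.0499 CPM in the library labelled treated and 0.0658 CPM in the library labelled untreated. Reads that match more than 1 of these genes could have been lost, which was not tested. All 6 receptor genes passed 50 UMIs and 0 were 1.5-fold apart, with a median log2 ratio of -0.31. Of all genes, 14.9% were lower and 3.77% higher by that fold, so 6 genes are too few to set the receptors apart. IFNAR1 had 37.6 CPM in the library labelled treated and 32.7 CPM in the library labelled untreated, a ratio of 1.15 (1.07 to 1.23). IFNGR2 had 18.2 and 22.1 CPM, a ratio of 0.823, and IL10RB, a chain of the lambda receptor named after its value was seen, 0.677 (0.605 to 0.758).

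Of 13 measured genes of receptor signalling and its brakes, 2 were at least 1.5-fold lower and 0 higher, close to the 14.9% and 3.77% of all genes, with a median log2 ratio of -0.10. The lower genes were SOCS1, an inhibitor of the kinases, with 24 and 48 UMIs and its ratio at 0.379 (0.222 to 0.631), and the phosphatase gene PTPN6 at 0.615 (0.480 to 0.787). The most abundant, the phosphatase gene PTPN2 and the transcription factor gene STAT3, had ratios of 1.12 and 0.879. Other brakes did not pass 1.5-fold, with SOCS3 at 0.810 and CISH at 1.22, both named after their values were seen.

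Of 10 measured genes of nucleic acid sensing, 1 was at least 1.5-fold lower and 0 higher, against 14.9% and 3.77% of all genes, with a median log2 ratio of -0.06. TICAM1, the adaptor of the endosomal RNA receptor TLR3, had a ratio of 0.544 (0.466 to 0.635), with TLR3 itself at 0 UMIs. The most abundant, LRRFIP1 and the DNA exonuclease gene TREX1, had ratios of 0.900 and 1.02. MB21D1, which encodes the DNA sensor cGAS, had 5 UMIs in the library labelled treated and 26 in the library labelled untreated, and TMEM173, which encodes its adaptor STING, had 1 and 21. DDX41, also known as a sensor of DNA in the cytosol, had 22.7 CPM in the library labelled treated and 18.4 CPM in the library labelled untreated, a ratio of 1.24 (1.13 to 1.35). These 3 were named after their values were seen.

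Of 26 measured other interferon-inducible effectors, 8 were at least 1.5-fold lower and 0 higher, against 14.9% and 3.77% of all genes, with a median log2 ratio of -0.14. UBE2L6 at 0.347 and NMI, the partner of IFI35, at 0.463 (0.344 to 0.619) were the lowest. The most abundant, LY6E and IFI27L1, had ratios of 0.756 (0.737 to 0.775) and 0.697. LY6E, a membrane protein of antiviral defence, had 197.7 CPM in the library labelled treated and 261.6 CPM in the library labelled untreated. Others lay near 1, with the RNA-dependent kinase gene EIF2AK2 at 0.925 and the RNA editing enzyme gene ADAR at 1.03, both named after their values were seen.

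Antigen presentation genes that interferon also induces went both ways. Of 12 measured, 4 passed 1.5-fold downwards and 1 upwards, against 14.9% and 3.77% of all genes, with a median log2 ratio of -0.10. The immunoproteasome gene PSMB8 had a ratio of 0.233 (0.134 to 0.390), while HLA-B, the one at least 1.5-fold higher, had 1592 CPM in the library labelled treated and 1055 CPM in the library labelled untreated, a ratio of 1.51 (1.49 to 1.53). HLA-C, the most abundant, had a ratio of 1.38.

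**Figure D5:**
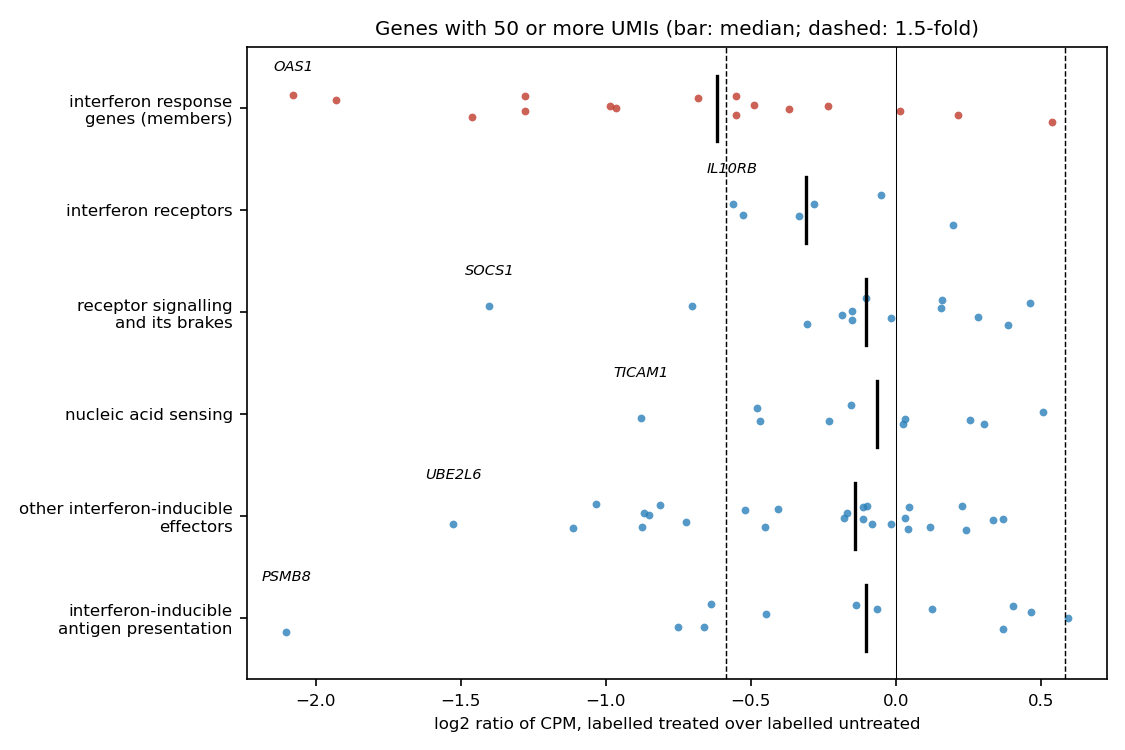
Log2 ratio of CPM (labelled treated over labelled untreated) of genes with at least 50 UMIs, for the 16 interferon response genes and the 5 other lists of the pathway with such genes. Black bars are medians, from -0.62 for the interferon response genes to -0.06 for nucleic acid sensing, dashed lines mark 1.5-fold, and the lowest gene of each list is named.

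Markers of other cell types moved the same way as the weak members. Of 31 such markers, 11 had at least 50 UMIs, and 9 of these passed 1.5-fold downwards (14.9% of all genes did), the median log2 ratio being -0.75. Their summed level was 407.1 CPM in the library labelled treated and 481.9 CPM in the library labelled untreated, most of it from KRT10. The defining leukocyte genes PTPRC, CD53, CD3D and MS4A1 were among 10 of the 31 at 0 in both libraries. CD79A had 1.23 and 4.26 CPM and COL1A1 1.20 and 3.80 CPM, levels and ratios like those of the weaker members. Not all of the lower markers were weak. SFN had 6603 UMIs over both libraries and a ratio of 0.485, CORO1A 2419 and 0.594, and DCN 2154 and 0.661. Of all genes with 1000 UMIs or more, 4.46% passed 1.5-fold downwards. The part of the lower level of weak genes in general in the members' ratios was not tested.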

How the data were processed

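The authors deposited 1 table for both samples, in natural log units. Cell Ranger, Seurat and hg19 are named in the submitters' processing notes, without versions or roles; annotation, strand setting and cell filters are not given in the sources used here. Back-transformed, each cell sums to 10000, and the smallest value above 0 in a cell was taken as 1 UMI. 100% of the values above 0 were then whole multiples within 1e-06, so UMIs were recovered for all 10816 cells and summed per library. No cell was removed and doublets were not called. In GENCODE, exons of ISG15, IRF1 and OAS1 overlap exons of genes on the opposite strand, so without a stated strand setting their reads could be shared. Exons of IRF9 overlap those of a gene on the same strand, so its reads could be shared under any strand setting. Of the members under 50 UMIs, exons of IFIT2 and SP100 also overlap a gene on the same strand. Exons of MX1, IFITM3, XAF1, PARP9 and DTX3L overlap a gene on the opposite strand. Their counts could be lowered by shared or lost reads, which was not tested.

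Ratios of CPM carry 95% Clopper-Pearson intervals on the share of UMIs labelled treated, levels have exact Poisson intervals, and a count of 0 is limited by 3 counts. Cells were thinned without replacement. Phases were called with scanpy 1.11.5 from S and G2/M gene lists, both libraries together. Python 3.11.15, numpy 2.4.6 and scipy 1.17.1 were used, and the ratio code was tested on simulated data. Alternatives changed scaling, cell weights, pseudocount, UMI minimum, fold, cells and depth. The members, gene lists and alternatives were chosen with earlier results of these data known, and the UMI classes after seeing the values here. The rule for named genes gave every member, and of each other list the 2 highest and 2 lowest past 1.5-fold and the 2 most abundant. Some genes that the rule names are not reported here.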

Additional observations from a re-analysis of the deposited data

How the results depend on the processing

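No paired analysis was possible because each group has 1 library, and for the same reason no library could be left out. Among 192 values of the 16 measured genes under alternatives, 151 stayed within the counting interval of the ratio over all cells, 39 left it and 2, of a gene past 1.5-fold over all cells, turned to the other direction. Both were of IFI35, at 1.05 in cells of 7000 to 12000 UMIs and 1.32 in G1 cells, an alternative chosen after seeing the data. Of the genes not past 1.5-fold, 6 had 10 values on the other side of 1, namely OAS3 at 1.11 and USP18 at 1.18 in G2/M, OAS3 at 1.32, IRF9 at 1.51, IFI6 at 1.02, STAT2 at 0.922 and LGALS3BP at 0.740 in G1, and 3 more of LGALS3BP, from 0.945 to 0.986. The count of genes at least 1.5-fold lower, 8 in all cells, was 5 with a minimum of 100 UMIs (of 13 genes left, against 12.2% of all genes at that minimum), 5 at 2-fold (against 7.93% of all genes) and 0 with 0.1 per 10000 added to both levels, which shrinks weak genes by construction. With that addition the median log2 ratio was -0.16, against -0.62. The count at least 1.5-fold higher, 0 in all cells, was 1 in cells called G1, in those called S, at 7000 to 12000 UMIs, in thinned cells and with equal weight for each cell. This gene was IRF9 in G1 and DDX58 otherwise, and 3.88% to 12.2% of all genes were that much higher under these 5 alternatives. The summed ratio, 0.743, was 0.815 in cells of 7000 to 12000 UMIs and 0.703 in G1; the cause was not tested. ISG15, ISG20, IFI27, IRF7 and OAS1 were at least 1.5-fold lower under 11 of 12 alternatives each, the exception being the addition to both levels.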
